A study of Mus musculus with 11 samples.

Results

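The mixed lineage kinases are the upper tier of a kinase relay that ends in c-Jun N-terminal kinase (JNK), and the account that follows covers the transcripts of 10 genes of this relay in the hypothalamus of young male mice. They are Map3k9, Map3k10, Map3k11 and Map3k12 (the kinases MLK1, MLK2, MLK3 and DLK), Map2k4 and Map2k7 (MKK4 and MKK7), Mapk8, Mapk9 and Mapk10 (JNK1, JNK2 and JNK3) and Atf2, a transcription factor that JNK phosphorylates. Their probes were all mouse probes whose accession belongs to the gene, and for Map3k10 the probes of that name in the study's list of genes with lower expression. This gave 21 of the 39429 mouse probes on the array. The study's list was made from these same arrays, so the 2 Map3k10 probes were chosen by their lower signal on the HFD arrays, and this is described below without a test. The other 19 probes, of 9 genes, were found by accession, although the set of genes was put together with results of these arrays known.

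RNA came from the hypothalamus of male C57BL/6N offspring killed at postnatal day 21. HFD offspring (6 arrays) had mothers on a high-fat diet from weaning through mating, gestation and lactation, and CO offspring (5 arrays) had mothers on standard chow over the same periods. The labels do not say whether an array stands for 1 animal or which mother it came from, and p-values therefore reflect only how much these arrays scatter. Each CO label carries the leading number 65 or 89, whose meaning is not given, and the HFD labels carry no such shared number. HFD and CO arrays were scanned in separate sessions, on separate slides and with different versions of the extraction protocol, so that diet and scan session cannot be told apart in any comparison below.

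Mixed lineage kinases are MAP kinase kinase kinases. They phosphorylate MKK4 and MKK7, which in turn phosphorylate the JNKs, and JIP scaffolds hold the tiers together. JNK acts on nuclear targets such as c-Jun and ATF2 and on cytoskeletal proteins of axons and dendrites. In neurons the relay is known for its part in the response to axon injury, in cell death and in the outgrowth of processes, and JNK1 in the mouse brain takes part in the control of body weight.

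Values are log2 processed signals relative to the 75th percentile of each array, which lay between 3135 and 3447 intensity units on HFD arrays and between 2216 and 2932 on CO arrays. Between 71.8 and 77.4% of mouse spots were well above background on HFD arrays, against 82.5 to 85.7% on CO arrays. Of the 21 probes, 20 were well above background on all 11 arrays. Spike-in probes were 0.68 higher on HFD arrays, on the log2 scale, so that scaling arrays to them lowers every HFD minus CO difference below by that amount. All 12 hypothalamic marker genes were measured, and 11 were well above background on every array. The other was Sim1, above background on 6 of 6 HFD arrays and 0 of 5 CO arrays. Striatal markers were lower in HFD for 7 of 8 genes, with a summed signal of 5.17 to 19.3 times the 75th percentile on HFD arrays and 10.02 to 66.1 times on CO arrays. Of 8 oligodendrocyte markers, 6 were lower (summed signal 295.5 to 362.8 on HFD arrays and 345.8 to 390.5 on CO arrays), and of 8 neuronal markers 4 were higher (172.6 to 195.8 on HFD arrays and 144.3 to 159.6 on CO arrays). Of all genes, 22.2% were higher and 44.1% lower. The part of these marker differences in the results below was not tested, and in tissue RNA fewer cells of a type and less RNA per cell cannot be told apart.

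The promoters of the 2 genes whose probes lay farthest apart between the groups are shown first, as RefSeq gives them for the mouse assembly GRCm38.p6, from 250 bases before to 50 bases after the annotated start. Mapk8 and Mapk10 each have 2 annotated starts, and only 1 of those of Mapk10 is shown. Mapk10, the JNK gene expressed mostly in neurons, is added because the promoter at that start holds the site that ATF2 and c-Jun dimers bind. Capitals mark this cAMP response element, TGACGTCA, or the AP-1 site, TGACTCA or its reverse complement TGAGTCA.
Map3k10, chr7:27674532-27674831, minus strand: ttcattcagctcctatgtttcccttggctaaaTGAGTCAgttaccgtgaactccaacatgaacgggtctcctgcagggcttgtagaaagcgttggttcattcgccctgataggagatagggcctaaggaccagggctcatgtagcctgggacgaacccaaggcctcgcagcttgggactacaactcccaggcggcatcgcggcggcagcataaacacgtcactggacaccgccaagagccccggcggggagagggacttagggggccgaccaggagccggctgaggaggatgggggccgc
Mapk10, chr5:103211285-103211584, minus strand: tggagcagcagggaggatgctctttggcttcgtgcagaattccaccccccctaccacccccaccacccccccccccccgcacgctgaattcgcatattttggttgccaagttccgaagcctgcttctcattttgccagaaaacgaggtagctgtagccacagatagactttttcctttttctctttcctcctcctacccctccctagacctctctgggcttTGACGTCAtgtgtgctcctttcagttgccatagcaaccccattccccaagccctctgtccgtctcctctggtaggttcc
Mapk8, chr14:33447109-33447408, minus strand: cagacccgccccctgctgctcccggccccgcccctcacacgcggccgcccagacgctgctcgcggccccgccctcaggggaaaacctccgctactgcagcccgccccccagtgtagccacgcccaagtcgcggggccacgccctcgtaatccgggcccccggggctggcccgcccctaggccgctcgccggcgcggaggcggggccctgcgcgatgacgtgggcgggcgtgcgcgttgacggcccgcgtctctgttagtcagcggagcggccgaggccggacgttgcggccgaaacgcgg
Mapk8, chr14:33410975-33411274, minus strand: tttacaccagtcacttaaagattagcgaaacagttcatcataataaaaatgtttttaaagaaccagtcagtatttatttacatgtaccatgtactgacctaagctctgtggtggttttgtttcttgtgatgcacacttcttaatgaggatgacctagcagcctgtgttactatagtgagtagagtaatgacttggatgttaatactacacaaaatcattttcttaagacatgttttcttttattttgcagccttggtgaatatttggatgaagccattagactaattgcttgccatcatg
Searched on both strands, the Map3k10 promoter held 1 AP-1 site, 218 bases before the start, and the Mapk10 promoter shown held 1 cAMP response element, 29 bases before the start. None of the other 13 promoters of the 10 genes, the second Mapk10 promoter among them, held either run of letters. Among all 32851 mouse promoters of this length, 1.79% held the cAMP response element and 5.20% the AP-1 site. A match is a run of letters and no evidence of binding.

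Map3k10 encodes MLK2, a kinase found in the brain. Its probe A_55_P2104562 read -5.29, -5.74, -5.90, -5.28, -5.07 and -5.45 on the HFD arrays, against -1.97, -1.77, -2.08, -1.83 and -1.61 on the CO arrays. Probe A_55_P2123486 read -4.04, -4.27, -4.18, -4.27, -4.10 and -4.21 on the HFD arrays, against -2.21, -2.37, -2.34, -2.33 and -2.14 on the CO arrays. Every HFD array lay below every CO array at both probes, as their selection makes likely. The mean difference was -3.60 (12.2-fold lower in HFD) at the first and -1.90 (3.74-fold lower) at the second. Before scaling, the processed signal of the first probe was 52.4 to 94.8 intensity units in HFD and 568.1 to 825.4 in CO.

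Both Map3k10 probes carry the same accession, yet the gap between them was not the same in the groups. The first probe minus the second averaged -1.28 ± 0.28 in HFD (SD, n = 6) and 0.42 ± 0.16 in CO (SD, n = 5). The log2 decrease at the first probe was thus larger by 1.70 than at the second. The 5 probes with an accession-matched gene whose profile over the 11 arrays came closest to that of A_55_P2104562, among 22602 searched, belonged to Tatdn2, Zfyve9, H1f0, Tmed9 and Prr7. Their root mean square differences from it were 0.19, 0.23, 0.23, 0.25 and 0.25 on the log2 scale, and their HFD minus CO differences ran from -3.71 for Tatdn2 to -3.42 for Zfyve9. The search favours probes with a group difference like that of A_55_P2104562, so these values are a description and no separate result.

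**Figure D1:**
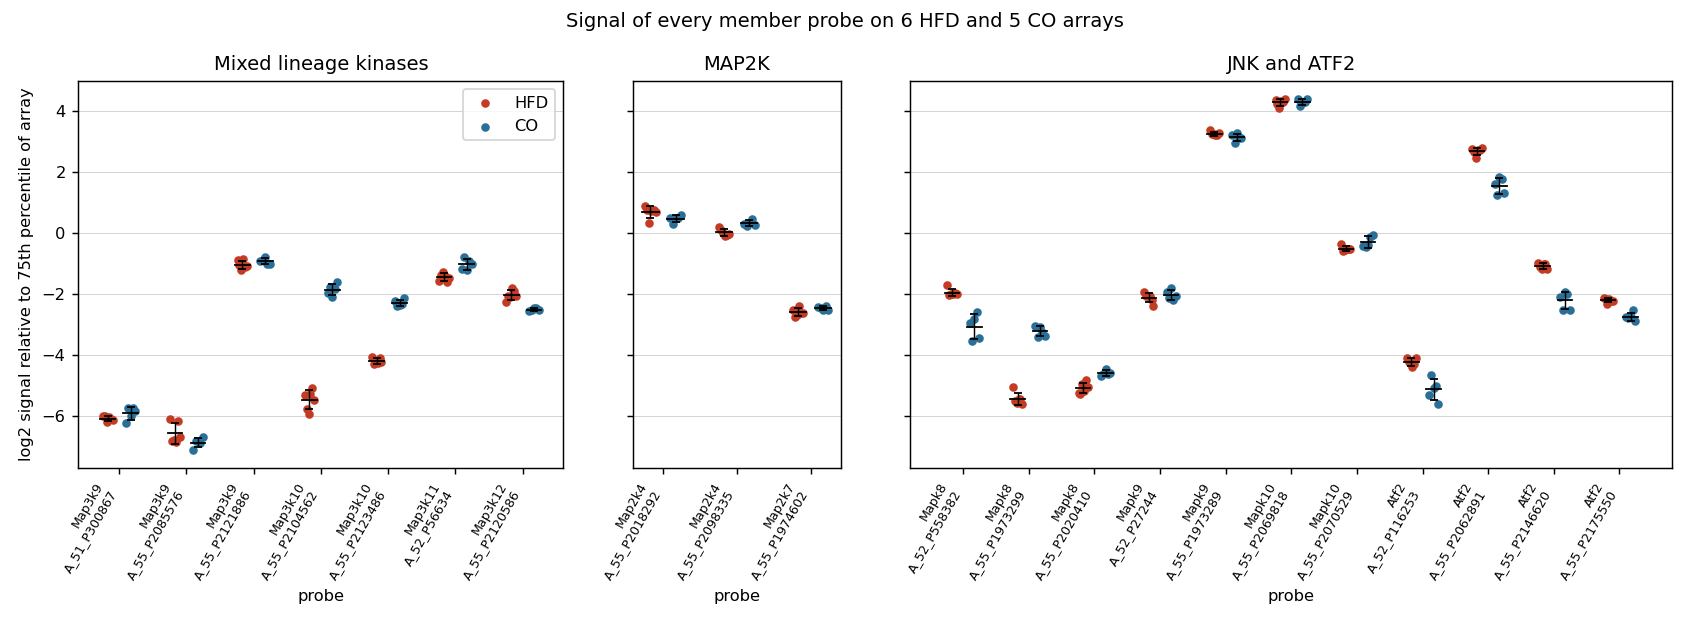
Each point is 1 array (HFD left of CO at each probe), on the log2 scale relative to the array's 75th percentile, and bars give the mean and SD. The groups lie far apart at both Map3k10 probes and at Mapk8 A_55_P1973299, while the points of Mapk9, Mapk10, Map2k7 and Map3k9 overlap.

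Across the other 19 probes the differences went both ways. By limma with Benjamini-Hochberg adjustment over 31790 probes and a threshold of 0.05, 6 probes were higher in HFD, 5 were lower and 8 did not pass. The 6 higher probes belong to Map3k12, Mapk8 and Atf2, and the 5 lower to Map3k11, Map2k4, Mapk8 and Mapk10. The 11 probes called are 57.9% of the 19, while 67.1% of all probes tested were called (23.6% higher and 43.6% lower). The groups did not overlap at 10 of the 19 probes (HFD above CO at 6 and below it at 4), against 48.0% of all probes (17.4% above and 30.6% below). The median difference was -0.02 over the 19 probes and -0.18 over all probes. As a set, these probes were thus called no more often than the array as a whole.

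**Figure D2:**
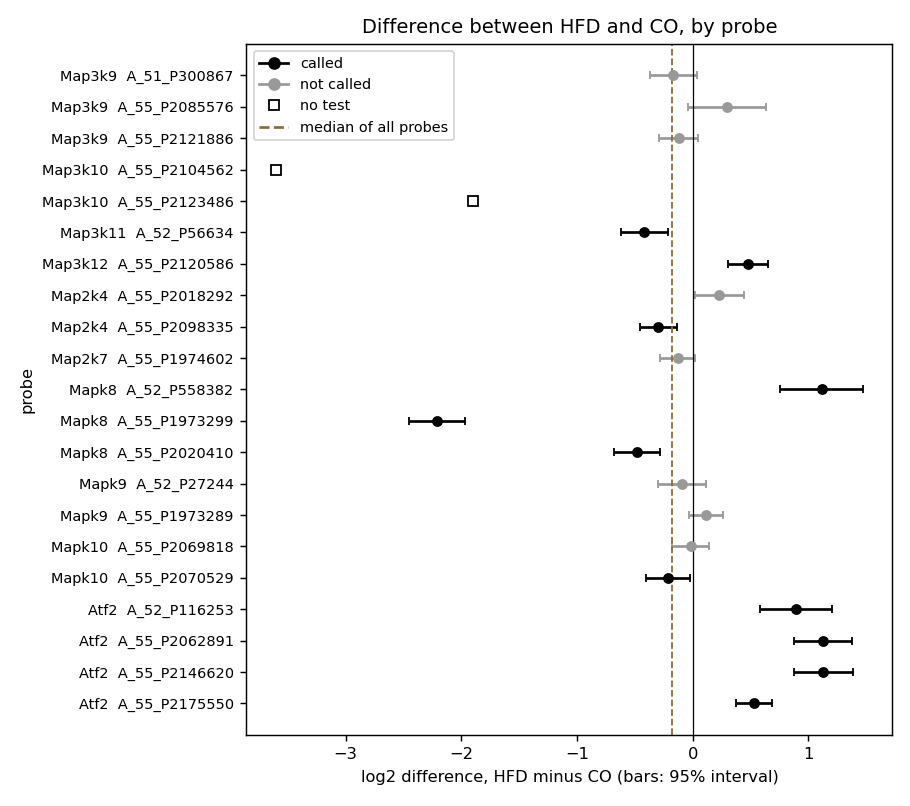
Points are log2 differences, HFD minus CO, at each probe, with 95% intervals from limma as bars; open squares are the Map3k10 probes, shown without an interval because they were chosen for their decrease. The tested probes run from -2.21 to 1.13, both ends being set by probes of Mapk8 and Atf2, and the dashed line marks the median of all probes at -0.18.

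Among the other mixed lineage kinases, Map3k12 rose (its sign turned, to -0.20, with arrays scaled to the spike-in probes) and Map3k11 fell. Map3k12 encodes DLK, which relays axon damage to the nucleus. Its probe A_55_P2120586 read -2.25, -2.06, -2.10, -1.81, -1.88 and -2.05 on HFD arrays and -2.56, -2.51, -2.46, -2.46 and -2.52 on CO arrays. All 6 HFD arrays were above all 5 CO arrays, by 0.48 ± 0.08 on average (SE, 1.39-fold, limma adjusted p = 0.000247).

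Map3k11 encodes MLK3, the most widely expressed member of the family. Its probe A_52_P56634 read -1.56, -1.37, -1.26, -1.40, -1.61 and -1.46 on HFD arrays and -1.19, -0.80, -1.21, -0.92 and -0.996 on CO arrays. The HFD arrays lay below the CO arrays without overlap, by -0.42 ± 0.09 (SE, 1.34-fold lower, limma adjusted p = 0.00179). On the unscaled signal the groups overlapped, at 1042 to 1329 intensity units in HFD and 1038 to 1547 in CO.

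Map3k9 (MLK1) had 3 probes, and none passed the test. The brightest, A_55_P2121886, averaged -1.03 ± 0.14 in HFD and -0.91 ± 0.10 in CO (SD, n = 6 and 5), a difference of -0.12 with a 95% interval of -0.29 to 0.05. A_51_P300867 differed by -0.17 (-0.37 to 0.03) and A_55_P2085576 by 0.30 (-0.04 to 0.64). The direction of both depended on the setting. A_51_P300867 passed as lower without CO1 (-0.25, limma adjusted p = 0.0112) and as higher with quantile normalization (0.24, limma adjusted p = 0.00759). A_55_P2085576 passed as higher with quantile normalization (0.85, limma adjusted p = 0.000574), passed as lower with spike-in scaling (-0.38, limma adjusted p = 0.0408) and came to -0.0066 under another background correction. It is near the detection limit, with 5 of 6 HFD and 5 of 5 CO arrays well above background.

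Of the 3 probes of the middle tier, 1 was called, as lower, and with spike-in scaling all 3 were. Map2k4 encodes MKK4, which activates both JNK and p38, and its 2 probes, which carry 1 accession, differed in opposite directions, although with spike-in scaling both were lower (-0.45 and -0.97). A_55_P2098335 read 0.21, 0.10, 0.02, -0.10, -0.06 and -0.04 on HFD arrays and 0.30, 0.22, 0.34, 0.47 and 0.27 on CO arrays, a difference of -0.30 ± 0.07 without overlap (SE, limma adjusted p = 0.00345), a call lost under another background correction (limma adjusted p = 0.298). On the unscaled signal of A_55_P2098335 the groups overlapped, at 3056 to 3784 intensity units in HFD and 2681 to 4076 in CO. A_55_P2018292 read 0.90, 0.75, 0.34, 0.74, 0.77 and 0.68 on HFD arrays and 0.48, 0.29, 0.49, 0.49 and 0.59 on CO arrays. Its HFD arrays lay above all CO arrays but for HFD3, and the difference of 0.23 ± 0.10 did not pass (SE, limma adjusted p = 0.0553). It passed without HFD3, at 0.30, and without CO5, at 0.26 (limma adjusted p = 0.00374 and 0.0488). With all arrays it passed as higher under median scaling, at 0.29 (limma adjusted p = 0.0393). The filter on all 11 arrays and slide as a random block also brought it past the threshold (limma adjusted p = 0.04997 and 0.0465).

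Map2k7 encodes MKK7, which is specific for JNK. Its single probe averaged -2.59 ± 0.12 in HFD and -2.46 ± 0.06 in CO (SD, n = 6 and 5). The difference of -0.13 did not pass (95% interval -0.28 to 0.02, limma adjusted p = 0.119), although it did without HFD4 (-0.17, limma adjusted p = 0.0325).

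Mapk8, the gene of JNK1, gave 3 probes on 1 accession that did not move together. A_52_P558382 read -1.71, -2.03, -1.996, -1.98, -1.95 and -1.997 on HFD arrays, against -2.93, -3.54, -2.81, -2.58 and -3.44 on CO arrays. A_55_P1973299 read -5.04, -5.49, -5.57, -5.44, -5.44 and -5.59 on HFD arrays, against -3.04, -3.40, -3.07, -3.23 and -3.36 on CO arrays. A_55_P2020410 read -5.22, -5.25, -4.94, -5.17, -4.80 and -5.02 on HFD arrays, against -4.67, -4.62, -4.43, -4.62 and -4.58 on CO arrays. The groups did not overlap at any of the 3 probes, with HFD above CO at the first and below it at the others.

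The first Mapk8 probe was 1.11 ± 0.16 higher in HFD (SE, 2.17-fold, limma adjusted p = 0.000102), and by 0.44 with spike-in scaling (limma adjusted p = 0.0282). The second was lower by 4.63-fold, a difference of -2.21 ± 0.11 (SE, limma adjusted p = 7.87e-08), and it too stands in the study's list of genes with lower expression. Under another background correction it came to -1.35 (limma adjusted p = 0.00872). The third was lower by 1.40-fold, a difference of -0.48 ± 0.09 (SE, limma adjusted p = 0.000571). On the unscaled signal the third probe overlapped, at 87.7 to 113.6 intensity units in HFD and 92.4 to 119.0 in CO, and its difference came to -0.23 with quantile normalization (limma adjusted p = 0.0397) and lost its call under another background correction (limma adjusted p = 0.721). Within the CO group the first probe was lowest on CO2 and CO5, the arrays with the largest shares of spots above background, whose part in this was not tested.

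Mapk9 and Mapk10, the genes of JNK2 and of the mainly neuronal JNK3, were near the same level in both groups at this scaling, while with spike-in scaling all 4 of their probes were called lower (-0.89 to -0.56). The brighter Mapk9 probe, A_55_P1973289, averaged 3.26 ± 0.07 in HFD and 3.14 ± 0.11 in CO (SD, n = 6 and 5), with a 95% interval of the difference of -0.03 to 0.26. The dimmer, A_52_P27244, differed by -0.09 (-0.30 to 0.12). Neither passed the test. The brighter Mapk10 probe, A_55_P2069818, averaged 4.28 ± 0.11 in HFD and 4.30 ± 0.10 in CO, with an interval of -0.18 to 0.14. The dimmer, A_55_P2070529, fell by 0.21 ± 0.09 (SE, limma adjusted p = 0.0438). Its groups overlapped, since HFD1 read -0.35 and CO1, CO2 and CO3 read -0.41, -0.47 and -0.40. Its call was lost on leaving out any of 7 single arrays, namely CO4, CO5 and each HFD array but HFD1, and came to -0.16 without CO5 (limma adjusted p = 0.108). The call was also lost with median scaling and without the filter on dim probes (limma adjusted p = 0.165 and 0.0528). Another background correction lost it too (limma adjusted p = 0.124).

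Atf2 was higher in HFD at all 4 of its probes, which carry 1 accession, although 1 of them turned to -0.14 with spike-in scaling. The brightest, A_55_P2062891, read 2.74, 2.65, 2.45, 2.71, 2.71 and 2.80 on HFD arrays and 1.60, 1.26, 1.82, 1.77 and 1.30 on CO arrays. A_55_P2146620 read -0.98, -1.10, -1.18, -1.004, -1.0004 and -1.19 on HFD arrays and -2.08, -2.51, -1.93, -1.997 and -2.51 on CO arrays. These probes share their order within the CO group, with CO2 and CO5 lowest in both. They were higher by 1.13 ± 0.11 and 1.13 ± 0.12 (SE, 2.18-fold and 2.19-fold, limma adjusted p = 6.95e-06 and 8.30e-06). A_52_P116253 and A_55_P2175550 were higher by 0.89 ± 0.14 and 0.53 ± 0.07 (SE, limma adjusted p = 0.000178 and 5.28e-05). At all 4 probes every HFD array lay above every CO array, also on the unscaled signal. Probes on 1 accession are repeated readings of 1 gene, so they are not 4 independent results. With spike-in scaling the first pair stayed higher, at 0.45 each (limma adjusted p = 0.00773 and 0.00661), A_52_P116253 no longer passed (0.22) and A_55_P2175550 was the one whose sign turned. With another background correction A_52_P116253 and A_55_P2175550 did not pass (limma adjusted p = 0.127 and 0.0661).

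**Figure D3:**
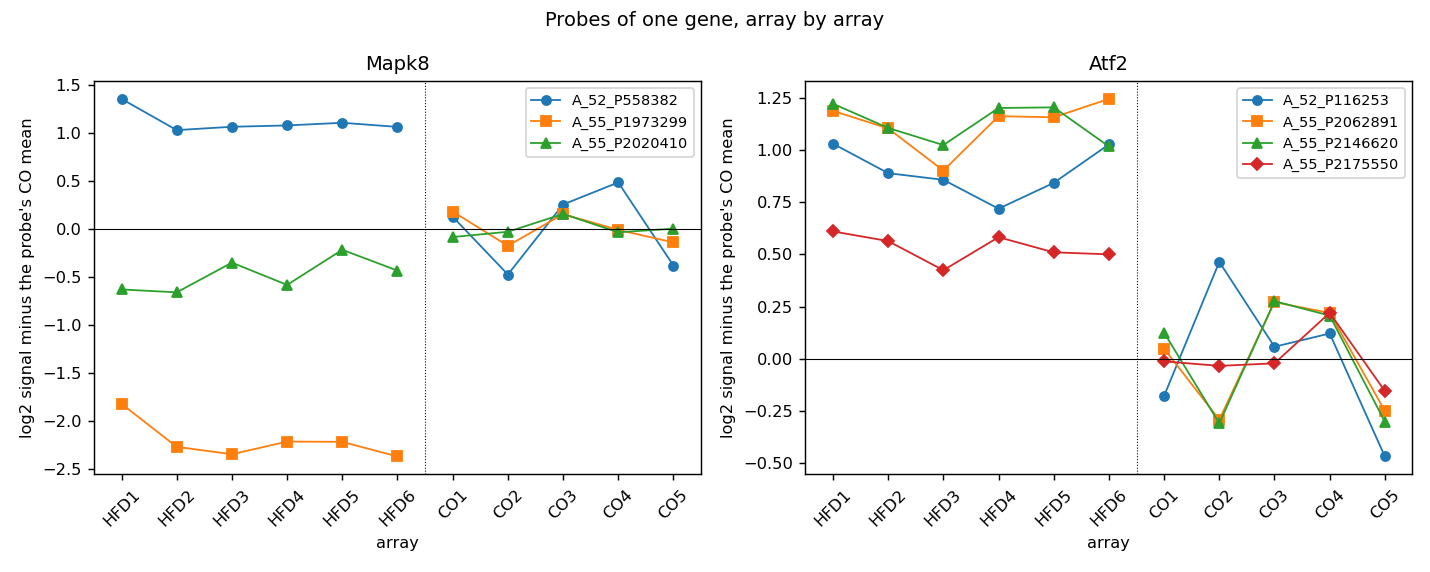
Lines follow each probe of Mapk8 (left) and Atf2 (right) over the 6 HFD and then the 5 CO arrays, as the log2 signal minus that probe's CO mean. The Mapk8 probes part into one above and a pair below the CO level, by 1.11, -2.21 and -0.48 on average, while all 4 Atf2 probes lie above it, 1 of which turns to -0.14 with spike-in scaling.

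Differences between probes of 1 gene on the same array do not depend on how arrays are scaled to one another by a constant. Each probe was set against the brightest probe of its gene in 10 pairs from 6 genes, by an exact two-sided permutation test over arrays (smallest p possible 0.00216) with adjustment over the 10 pairs. The pairs of Mapk9, of Mapk10 and of Map3k9 A_51_P300867 set probes of different accessions against each other. In the other pairs both probes carry 1 accession. The probes changed unequally in 5 pairs. Mapk8 A_55_P1973299 minus A_52_P558382 averaged -3.49 ± 0.09 in HFD and -0.16 ± 0.32 in CO (SD, n = 6 and 5, exact permutation test, adjusted p = 0.00722). For Mapk8 A_55_P2020410 the change against A_52_P558382 was -1.60, and for Atf2 A_55_P2175550 against A_55_P2062891 it was -0.59 (both with adjusted p = 0.00722, exact permutation test). The pair of Map2k4 probes changed by -0.53 (adjusted p = 0.0162, exact permutation test), and by -0.24 under another background correction, where the call was lost (adjusted p = 0.321, exact permutation test). The pair of Mapk9 probes changed by -0.21 (adjusted p = 0.0476, exact permutation test), a call kept without CO4 and lost without any other single array and under another background correction. The remaining 5 pairs, of Map3k9, Mapk10 and Atf2, did not pass. Of these, the Mapk10 pair (-0.19) passed with quantile normalization, under another background correction, without HFD3 and without CO1 (adjusted p = 0.0247, 0.0216, 0.0476 and 0.0286, exact permutation test). Both Map3k9 pairs passed with quantile normalization (each with adjusted p = 0.00722, exact permutation test), and that of A_55_P2085576 also without HFD4 (adjusted p = 0.0317, exact permutation test). Unequal change does not show which probe of a pair follows the gene.

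Scatter within groups was small for most of the 21 probes. Their SD had a median of 0.12 in HFD, with a range of 0.07 to 0.34, and of 0.16 in CO, with a range of 0.04 to 0.41. Over all probes tested the median SD was 0.15 in HFD and 0.18 in CO. The widest scatter in CO was at Mapk8 A_52_P558382 and the widest in HFD at Map3k9 A_55_P2085576.

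Around these genes, 72 others of the pathway were listed in 8 groups by role, and 70 were measured. With each gene represented by its brightest probe, and adjustment over 17188 genes, 21 rose, 24 fell and 25 did not pass. The 45 called genes are 64.3% of the 70, and 66.4% of all genes were called (22.2% higher and 44.1% lower). The median difference was -0.06 over the 70 genes and -0.17 over all genes. Values below are from this fit, as log2 differences, HFD minus CO. The counts of each list are to be read beside these shares of all genes. They rest on the brightest probe alone, and other probes are given below for named genes only. Several genes that did not pass had another probe that did in the fit over all probes. Examples are Elk1 (-2.12), Map3k5 (-1.67), Mapt (-1.33) and Nfatc3 (0.70). With spike-in scaling the sign turned at Map3k21, Map4k4, Map4k5, Sh3rf1, Jund and Dusp16 among the genes named by the rule given further below. Mycbp2 and Usp9x no longer passed. Under another background correction the calls of Map3k13, Map3k21, Mapk8ip3, Atf3, Trp53, Jund, Pxn, Dusp2, Dusp4, Map2k3 and Mapk13 were lost (limma adjusted p from 0.0584 for Pxn to 0.945 for Jund).

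Of 11 kinases related to the mixed lineage kinases or acting beside them, 4 rose and 3 fell (median 0.01). Map3k13 (LZK), the closest relative of DLK, fell by 0.71 ± 0.12 and Map3k3 (MEKK3) fell by 0.49 ± 0.07, while Map3k2 (MEKK2) rose by 1.07 ± 0.12 and Map3k21 (MLK4) by 0.26 ± 0.06 (SE, limma adjusted p = 0.000300, 0.000119, 1.26e-05 and 0.00325). The second probe of Map3k13 was lower as well, at -0.83, and that of Map3k2 was at 0.53 and did not pass (limma adjusted p = 0.111). Of the 2 kinases of the DLK branch, Map3k12 thus rose, though not with spike-in scaling, and Map3k13 fell.

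Of 9 kinases of the MAP4K and TAO families, 4 rose and 1 fell (median 0.13). Taok1 rose by 3.07 ± 0.23 and averaged 4.42 ± 0.18 in HFD against 1.34 ± 0.59 in CO (SD, n = 6 and 5, limma adjusted p = 9.62e-07), and it stands in the study's list of genes with higher expression. Tnik, Map4k5 and Map4k4 rose by 0.96, 0.61 and 0.46, but a second Map4k4 probe was lower, at -0.48.

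Of 8 JNK scaffolds, 3 rose and 3 fell (median -0.16). Spag9 (JIP4) rose by 1.11 and Sh3rf1 (POSH) by 0.58, while Mapk8ip2 (JIP2) and Mapk8ip3 (JIP3) each fell by 0.34. A second Mapk8ip3 probe was lower by more, at -1.04. Other probes of Sh3rf1 were at 0.62, which passed, and at 0.34, which did not (limma adjusted p = 0.0902). Sh3rf2, picked out after its values were seen, differed by -2.77 ± 0.76 (SE, limma adjusted p = 0.00730) with an SD of 1.39 in HFD and 1.44 in CO, and its groups overlapped. All 6 regulators of MLK3 and DLK stability were called, 4 higher and 2 lower (median 0.56), beside 66.4% of all genes called. Hsp90aa1, a chaperone of MLK3 and DLK, rose by 1.51 and its co-chaperone Cdc37 fell by 0.52. Hsp90ab1, the brighter HSP90 gene of the list, fell by 0.26 without overlap (limma adjusted p = 0.0110). It was picked out after its values were seen, and no alternative settings are given for it. Mycbp2, the ubiquitin ligase that turns over DLK, rose by 0.92 and Usp9x, which removes ubiquitin from it, by 1.01.

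Of 7 nuclear JNK targets, 1 rose and 3 fell (median -0.33), while 22.2% of all genes were higher and 44.1% lower. Jun averaged 2.11 ± 0.05 in HFD and 2.44 ± 0.10 in CO (SD, n = 6 and 5) and fell by 0.33 ± 0.06 without overlap (SE, limma adjusted p = 0.000357). Atf3 and Trp53 fell by 0.53 and 0.67, and Jund rose by 0.24. Of 13 cytoplasmic targets, 4 rose and 4 fell (median 0.14). The microtubule proteins Map2 and Dcx, which serve dendrites and young neurons, rose by 1.35 and 1.05, and a second Map2 probe was higher by 1.23. Pxn (paxillin) and Dlg4 (PSD-95) fell by 1.23 and 1.18.

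Of 7 JNK phosphatases and inhibitors, 1 rose and 4 fell (median -0.26). Gstp1, which binds and restrains JNK, fell by 0.55, Dusp4 by 0.53 and Dusp2 by 0.48, and Dusp16 rose by 0.49, with second probes of Gstp1 at -0.13 and of Dusp16 at -0.26 that did not pass. With the mean over probes Dusp16 was no longer called (0.12, limma adjusted p = 0.190). Of 9 genes of the p38 branch, which shares MKK4 with JNK, 0 rose and 4 fell (median -0.17). Over all genes 22.2% were higher and 44.1% lower. Mapk13, Mapkapk3 and Map2k3 fell by 0.97, 0.47 and 0.36, and Mapk14 (p38 alpha) fell by 0.17 ± 0.06 (SE, limma adjusted p = 0.0340). This call was lost without any 1 of CO1, CO2, CO3, CO5, HFD2, HFD4 and HFD5 (-0.15 without CO1, limma adjusted p = 0.0804). A second Mapk14 probe was lower by more, at -1.77.

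**Figure D4:**
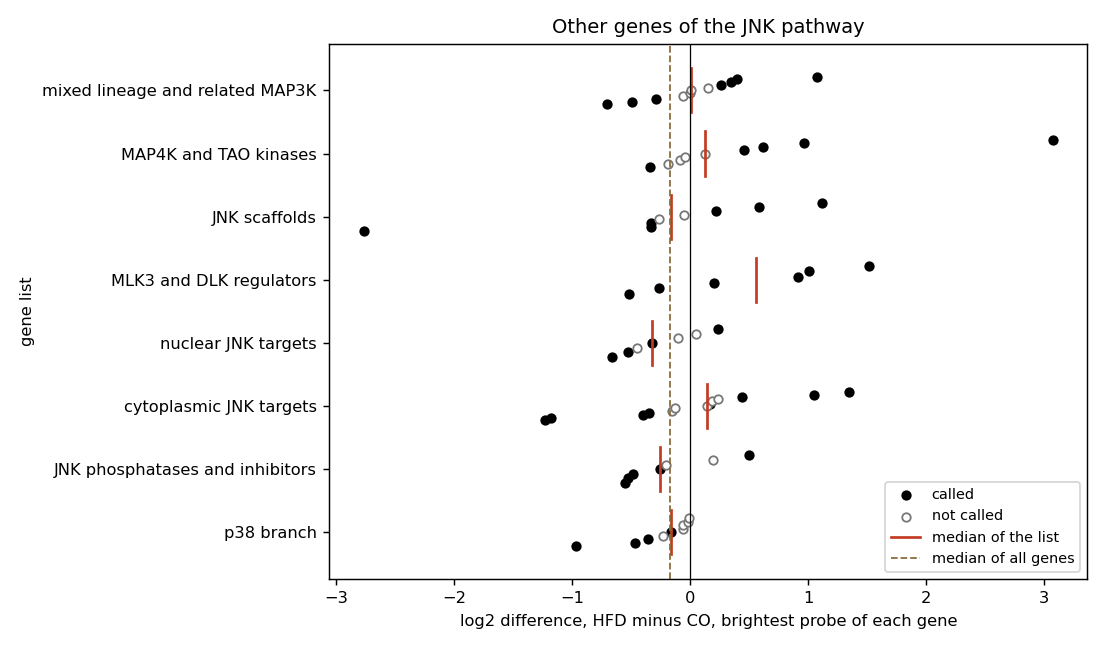
Each point is 1 gene of a list, placed by its log2 difference, HFD minus CO, at its brightest probe; filled points passed the test, red bars are list medians and the dashed line is the median of all genes (-0.17). List medians run from -0.33 for the nuclear JNK targets to 0.56 for the regulators of MLK3 and DLK, with Taok1 farthest right at 3.07 and Sh3rf2 farthest left at -2.77.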

How the data were processed

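RNA of 6 HFD and 5 CO hypothalami was hybridized with a single dye to Agilent mouse arrays. What the authors deposited is 1 scanner file per array, with spot intensity on a linear scale after background subtraction by Agilent Feature Extraction (version 10.8 in the submitters' processing notes, 10.7.3.1 in the file headers). How arrays were normalized to each other was found in no source used here.

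From these intensities, log2 of the processed signal minus each array's 75th percentile was taken, outlier spots (93 to 227 of 43020 mouse spots) were left out, and spots of a probe were averaged. No mouse spot was saturated. Accessions of 26369 probes matched 19987 genes in the mouse gene listing of GRCm38.p6, which does not hold the accession of the Map3k10 probes. Kept were probes that 5 or more of 11 arrays showed well above background, and groups were compared with limma 3.58.1 (lmFit, eBayes; R 4.3.3, statmod 1.5.0, data.table version 1.17.8), two-sided, in a fit over all such probes and in another with 1 probe per gene (the brightest), with Benjamini-Hochberg adjustment. Promoters were searched and permutations run in Python 3.11.15 with numpy 2.4.6 and pandas 2.3.3. The number of arrays limits the precision. The limma fit without blocks, the Rank Product test and the exact permutation test were tested on simulated data. The Mann-Whitney test and the fits with blocks were not.

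Members and lists were chosen with earlier results of these data known, and 1 list of upstream genes is not reported here. Named genes were all members, up to 4 genes per list with the smallest adjusted p, and Map3k13. Outside this rule, Sh3rf2, Hsp90ab1, Elk1, Map3k5, Mapt and Nfatc3 were mentioned after their values were seen. Alternatives covered scaling (quantile, median, spike-in), background correction (normexp with offset 50, on the median signal because no mean signal column was present), the filter, slide and label number as random blocks, a replicate block, leaving out each array, a threshold of 0.001, the Rank Product test of the methods (100 permutations), an exact Mann-Whitney test and the mean over a gene's probes. The labels' replicate numbers did not pair the samples.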

Additional observations from a re-analysis of the deposited data

Results flagged for a closer look

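In 42 groups of values (21 probes, 2 groups each), 4 had 1 array set apart from the rest by more than Dixon's limit, and chance alone sets off about 1 in 20. HFD1 was the array in all 4, each time the highest of its group. It read -1.71 at Mapk8 A_52_P558382, where the other HFD arrays lay between -2.03 and -1.95, and -5.04 at Mapk8 A_55_P1973299, where they lay between -5.59 and -5.44. It read 3.39 at Mapk9 A_55_P1973289, with the others between 3.20 and 3.26, and -0.35 at Mapk10 A_55_P2070529, with the others between -0.58 and -0.52. Without HFD1 the HFD minus CO differences at these 4 probes were 1.07, -2.29, 0.09 and -0.24, and no call changed.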

How the results depend on the processing

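Scaling to spike-in probes, which moves the median difference of all probes to -0.85, gave 3 higher and 13 lower of the 19 probes (7.07% and 80.6% of all probes) and 7 higher and 57 lower of the 70 genes (5.5% and 83.7% of all genes), against 6, 5, 21 and 24. It turned the sign at Map3k9 A_55_P2085576 (-0.38), Map3k12 (-0.20), Map2k4 A_55_P2018292 (-0.45), Mapk9 A_55_P1973289 (-0.56), Atf2 A_55_P2175550 (-0.14), Map3k21 (-0.42), Map4k4 (-0.22), Map4k5 (-0.064), Sh3rf1 (-0.10), Jund (-0.44) and Dusp16 (-0.18), and brought Map2k7, the other Map3k9 probes, Mapk9 A_52_P27244 and Mapk10 A_55_P2069818 past the threshold as lower (-0.85 to -0.70). The normexp correction left 2 probes and 13 genes lower (16.8% and 22.5% of all) and turned Map3k9 A_55_P2085576 (-0.0066), Mapk10 A_55_P2069818 (0.16) and Jund (-0.0098). Under these settings the Map3k10 differences were -4.28 and -2.58 (spike-in) and -2.61 and -1.41 (normexp). Quantile normalization gave 8 unequal probe pairs and turned Map3k9 A_51_P300867 (0.24, then called higher), median scaling turned Mapk10 A_55_P2069818 (0.042), and the mean over probes turned Map4k4 (-0.011). At a threshold of 0.001, 6 probes and 14 genes were higher (14.5% and 13.1% of all) and 2 probes and 15 genes lower (24.1% and 24.0% of all). The Rank Product test at 0.001 called 0 probes higher and 1 lower, Mapk8 A_55_P1973299 (2.80% and 2.03% of all probes), where the exact Mann-Whitney test called 6 and 5, and limma at an unadjusted p under 0.05 called 7 and 5. Leaving out single arrays gave 6 to 7 probes higher and 4 to 6 lower, 20 to 23 genes higher and 23 to 25 lower, and 4 to 5 unequal pairs; Mapk10 A_55_P2069818 ran from -0.055 without CO2 to 0.017 without HFD3, and turned to 0.0039 and 0.0058 without CO1 and CO5. The cause of these changes was not tested. Samples with the same replicate number did not deviate together (correlations from -0.09 to 0.22, with 2 of 5 CO arrays closest to their own number), so the numbers do not pair them; with the replicate block, 6 probes were higher, 4 lower, 20 genes higher and 24 lower. Pairs of probes were not run with blocks or at 0.001, below which the exact test cannot go. Dim probes, such as Map3k9 A_55_P2085576, limit what the signal can show.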
